A study of Mus musculus with 6 samples.

Results

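The 39 genes described here encode the machinery that copies chromosomes and then separates them. They were taken by symbol from the 32285 genes of the deposited count matrices, and all 39 were found. By role they comprise 14 replication genes, 14 regulators of mitosis and 11 genes of the chromosomes and the mitotic spindle. Their transcripts were measured in CD45+ cells, the leukocyte fraction, isolated from the hearts of C57Bl6J mice 28 days after treatment with a small animal microirradiator. The 3 groups had 2 libraries each. Irradiated libraries labelled STING KO came from mice titled Tmem that received a single 12 Gy dose to the heart. Irradiated WT libraries came from wild-type mice given that same dose, and Sham libraries came from wild-type mice that were sham treated. STING is the adaptor, encoded by Tmem173, through which cells respond to DNA in the cytosol. Mouse age, the form of the STING allele and the cells that lack it are not given in the sources used here. No sham library labelled STING KO was analysed, so an effect of genotype without irradiation was not measured. The labels do not say that libraries of a group came from separate mice, so the p-values below measure the spread between libraries, which may be technical.

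A cell that divides first loads the MCM helicase on its origins, unwinds the DNA and copies it around the sliding clamp PCNA, with nucleotides supplied by ribonucleotide reductase, thymidylate synthase and thymidine kinase. It then builds up cyclin B and CDK1, assembles a spindle, and holds its chromatids together until the spindle checkpoint releases CDC20 and the anaphase-promoting complex, which with the ubiquitin-conjugating enzyme UBE2C destroys cyclin B. Transcripts of the replication genes peak around S phase under E2F factors, and those of the mitotic genes peak in G2 and M phase through promoters that often carry a CHR element and CCAAT boxes. In the adult heart resident macrophages can divide in place, whereas mature neutrophils do not divide.

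The promoters of 6 members are shown because they display the different arrangements of these elements in replication and mitotic genes. Each run is 200 bases of RefSeq sequence, build GRCm38.p6, from 150 bases before to 50 bases after the annotated start, 5′ to 3′ on the strand of the gene. Capitals mark the E2F motif, the CCAAT box and the CHR element on either strand, searched as TTTCCCGC, TTTCGCGC, TTTGCCGC or TTTGGCGC for E2F, CCAAT for the box, and TTTGAA or TTCGAA for the CHR. Mcm3 lies at chr1:20820263-20820462 on the minus strand, Mcm6 at chr1:128359656-128359855 on the minus strand, and Pclaf at chr9:65890173-65890372 on the plus strand. Ccnb2 lies at chr9:70421505-70421704 on the minus strand, Cdc20 at chr4:118437294-118437493 on the minus strand, and Kif11 at chr19:37376232-37376431 on the plus strand.
Mcm3: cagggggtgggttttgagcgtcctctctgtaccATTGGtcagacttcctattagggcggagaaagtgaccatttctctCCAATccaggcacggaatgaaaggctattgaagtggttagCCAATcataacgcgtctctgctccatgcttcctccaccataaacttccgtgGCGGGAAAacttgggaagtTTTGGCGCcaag
Mcm6: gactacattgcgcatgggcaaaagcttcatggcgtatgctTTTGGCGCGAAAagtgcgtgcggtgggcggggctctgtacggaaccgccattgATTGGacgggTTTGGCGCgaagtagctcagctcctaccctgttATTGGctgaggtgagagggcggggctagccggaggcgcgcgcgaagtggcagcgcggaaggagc
Pclaf: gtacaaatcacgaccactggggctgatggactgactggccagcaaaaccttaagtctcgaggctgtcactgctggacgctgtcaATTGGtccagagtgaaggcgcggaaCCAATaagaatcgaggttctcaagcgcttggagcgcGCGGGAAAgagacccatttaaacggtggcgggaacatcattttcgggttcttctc
Ccnb2: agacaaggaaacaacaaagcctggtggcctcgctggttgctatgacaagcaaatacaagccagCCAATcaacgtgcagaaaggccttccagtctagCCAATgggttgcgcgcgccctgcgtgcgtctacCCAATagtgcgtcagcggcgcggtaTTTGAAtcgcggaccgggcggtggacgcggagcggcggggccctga
Cdc20: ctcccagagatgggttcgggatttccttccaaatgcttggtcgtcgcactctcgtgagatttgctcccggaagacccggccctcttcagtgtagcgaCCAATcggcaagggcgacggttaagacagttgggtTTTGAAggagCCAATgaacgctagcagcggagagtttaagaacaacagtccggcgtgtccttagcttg
Kif11: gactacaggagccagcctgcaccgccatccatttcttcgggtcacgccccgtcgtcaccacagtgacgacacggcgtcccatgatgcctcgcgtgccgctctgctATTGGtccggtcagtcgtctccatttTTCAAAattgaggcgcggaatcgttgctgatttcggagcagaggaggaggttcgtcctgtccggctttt
The first 3 genes belong to replication and hold E2F motifs with CCAAT boxes. The other 3 belong to mitosis and hold CCAAT boxes with a CHR. Over the longer windows of 250 bases before to 50 after the start, 33 members had 35 windows, and Aurkb, Ccna2, Kif20a, Mcm4, Stmn1 and Tpx2 had none in the table. An E2F motif was found in 7 of 15 windows of replication members (46.7%), 1 of 12 of mitotic regulators (8.33%, the kinase gene Cdk1) and 0 of 8 of chromosome and spindle members, against 2.26% of the 32851 windows of all genes. A CHR was found in 2 of 15 windows of replication members (13.3%), 9 of 12 of mitotic regulators (75.0%) and 6 of 8 of chromosome and spindle members (75.0%), against 19.2% of all windows. The CCAAT box was found in 30 of 35 member windows (85.7%), against 37.4% of all windows. Every member window with a CHR also held a CCAAT box (48.6% of member windows, against 7.52% of all windows). In 1 member window motifs of different kinds overlapped, and in the Mcm6 promoter E2F matches on opposite strands overlap. These matches describe letters in a window and were not measured as binding sites.

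The deposited matrices held 45904 barcodes, 4556 to 9319 per library with 31650962 to 59675213 UMIs, where the labels' protocol states 4500 to 9300 cells per library. After removal of barcodes with over 10% mitochondrial UMIs, under 200 genes or high doublet scores, 31279 cells were kept. Kept cells were deeper in the irradiated libraries, with median UMIs of 6792 and 6186.5 in those labelled STING KO, 6373 and 5510.5 in irradiated WT, and 4409 and 4588 in Sham. Libraries shared 4 to 27 barcodes in pairs. Ptprc, which encodes CD45, had a UMI in 81.4% of kept cells, and 2069 cells carried endothelial markers, so the fraction was not purely leukocytic. Tmem173 stood at 40.4 and 43.1 CPM in the libraries labelled STING KO, 45.5 and 41.8 in irradiated WT and 39.9 and 32.9 in Sham; the form of the allele is not given, so a 3′ tag of this gene does not check the genotype label. Clusters were built without cell cycle genes, so that dividing cells fell with their lineage, and were named from marker genes: the myeloid classes held 10669 macrophage-like, 3762 neutrophil-like, 1874 monocyte-like and 771 dendritic cell-like cells, the lymphoid ones 3448 B cell-like, 963 T cell-like, 1125 NK cell-like and 288 plasma cell-like cells, and the others 2069 endothelial-like and 469 fibroblast-like cells, with smaller classes besides. A further 4354 cells lay in clusters that mixed markers of different types, and 1249 lay in clusters without a name, 997 of them led by Mmp12 and Retnla and 252 by Alox15 and Prg4.

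Most of the 39 transcripts were concentrated in a small set of cells. A cell was called mitotic when it had a UMI of at least 3 different genes out of 21 mitotic members (all mitotic members but Cks1b, Cks2, Stmn1 and Hmgb2), and 2077 of 31279 kept cells (6.64%) met this without thinning. For a gene of that set the call used the other genes only. Of all UMIs of cyclin A2 (Ccna2), 97.4% lay in such cells, as did 96.7% for the spindle protein Nusap1, 96.5% for the motor Kif11, 96.5% for the checkpoint kinase Bub1, 96.3% for survivin (Birc5) and 96.1% for Ube2c. The lowest shares in the call set were those of the centromeric histone Cenpa, at 41.0%, and the kinase Aurka, at 80.5%.

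The replication members took no part in that call and ranged from narrow to broad transcripts. The PCNA-associated factor Pclaf had 95.2% of its UMIs in mitotic cells, the ribonucleotide reductase subunit Rrm2 had 90.3% and thymidine kinase (Tk1) had 85.6%. Uhrf1 (73.8%), Tyms (59.1%), Rrm1 (55.7%) and Hells (52.8%) lay in between. The 6 helicase genes Mcm2 to Mcm7 had 36.4% to 49.6% in mitotic cells, and Pcna, detected in 42.8% of all kept cells, had 30.4%. Among the mitotic members outside the call, Cks1b had 79.7% and the tubulin-binding Stmn1 had 78.3%, whereas the chromatin protein Hmgb2 had 47.7% and the CDK subunit Cks2 had 38.0%. Hmgb2 and Cks2 also had a UMI in 76.9% and 26.6% of neutrophil-like cells, where most members were found in under 1% of cells. Of the mitotic cells, 74.2% also carried at least 3 of the 14 replication genes, and of the 4868 cells with at least 3 replication genes, 31.7% were mitotic. Mitotic cells were deeper than the others, with a median of 13921 UMIs against 5107.5. A transcript spread evenly over all UMIs would therefore place more of its UMIs in them than their 6.64% share of cells.

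**Figure D1:**
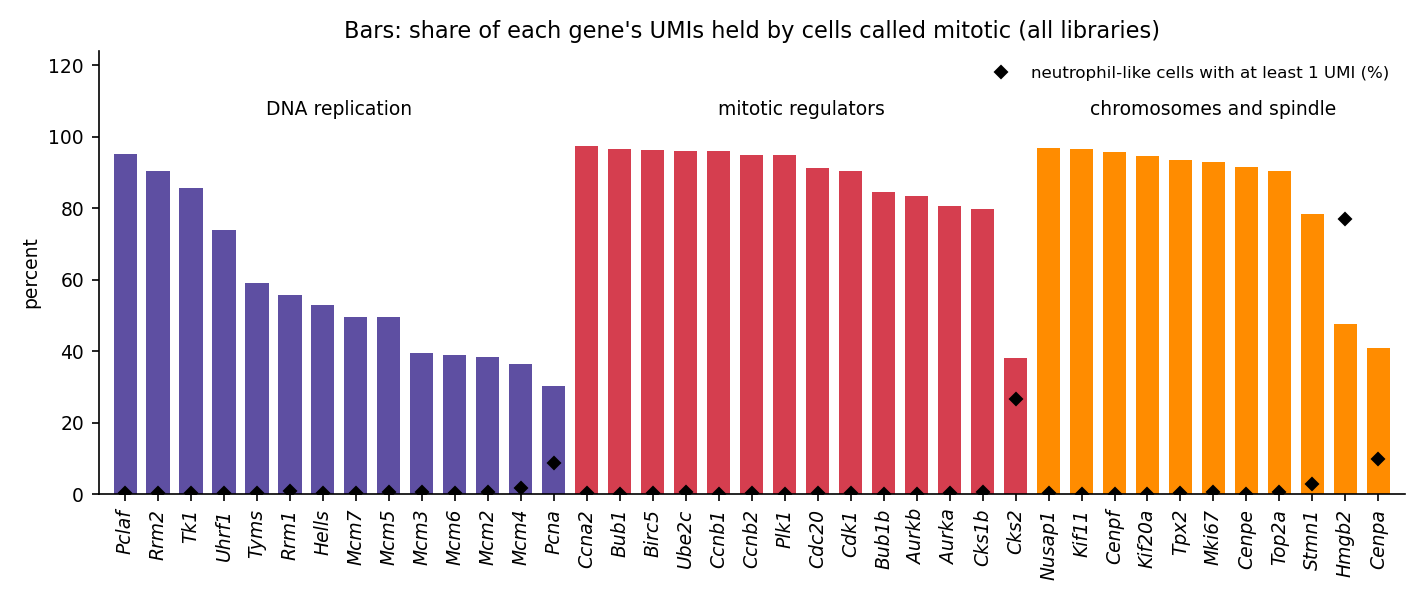
Bars give the percent of each member's UMIs, over all libraries, that lay in cells called mitotic, by role, and black diamonds the percent of neutrophil-like cells with at least 1 UMI of the gene. For genes of the call set the call used the other genes; Ccna2 (97.4%) is the most concentrated, Pcna (30.4%) the least, and Hmgb2 has the highest diamond (76.9%).

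To compare classes and groups at equal depth, each cell was thinned to 2000 UMIs and shallower cells were left out, which removed 4323 of the 31279 kept cells. Over all remaining cells the mitotic share was 4.24% and 4.71% in irradiated libraries labelled STING KO, 6.28% and 6.22% in irradiated WT, and 2.52% and 2.14% in Sham. The 3 groups did not overlap, with irradiated WT highest and Sham lowest; without thinning the shares were 7.66% and 7.98%, 9.43% and 8.68%, and 3.14% and 3.35% in that order. An exact permutation test, two-sided, of 2 libraries a group has a smallest possible p of 0.333, so these shares are given as values. The share with at least 3 replication genes was 5.19% ± 0.628 in irradiated libraries labelled STING KO, 5.59% ± 0.405 in irradiated WT and 2.33% ± 0.0919 in Sham (SD, n = 2 each).

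Macrophage-like cells supplied the most mitotic cells. They made up 44.6% ± 4.15 of unthinned mitotic cells in irradiated libraries labelled STING KO, 42.9% ± 6.99 in irradiated WT and 44.6% ± 9.57 in Sham (SD, n = 2 each). Among macrophage-like cells themselves the thinned mitotic share was 7.03% and 6.92% in irradiated libraries labelled STING KO, 8.34% and 8.47% in irradiated WT, and 3.27% and 3.31% in Sham. These groups did not overlap, in the same order as over all cells. Without thinning the shares were 11.2% and 10.3%, 11.9% and 10.4%, and 3.96% and 3.89%, and the irradiated groups overlapped. The replication share in macrophage-like cells was 7.28% ± 1.00 in irradiated libraries labelled STING KO, 7.25% ± 0.746 in irradiated WT and 3.01% ± 0.115 in Sham, with the irradiated groups closer to each other than their spread.

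Dendritic cell-like cells had higher mitotic shares than macrophage-like cells in each of the 6 libraries, at 12.5% and 12.9% in irradiated libraries labelled STING KO, 8.49% and 14.8% in irradiated WT, and 5.19% and 12.7% in Sham. The groups overlapped, and each value rests on 63 to 203 cells. Endothelial-like cells had 5.16% and 4.14% in irradiated libraries labelled STING KO, 5.59% and 5.69% in irradiated WT, and 0.433% and 1.79% in Sham. Every irradiated library lay above both Sham libraries. Without thinning the endothelial-like order of the irradiated groups turned, at 7.86% and 9.01% in libraries labelled STING KO, 5.41% and 6.92% in irradiated WT, and 1.43% and 3.66% in Sham. The 127 endothelial-like cells called mitotic without thinning had a median of 21637 UMIs, against 5636.5 in the other endothelial-like cells. Mitotic macrophage-like cells had a median of 11583. The cause of this depth was not tested. The unnamed clusters averaged 9.58% in irradiated libraries labelled STING KO, 8.90% in irradiated WT and 6.50% in Sham.

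Clusters that mixed markers of different types held 18.3% ± 1.34 of unthinned mitotic cells in irradiated libraries labelled STING KO, 26.7% ± 2.37 in irradiated WT and 26.2% ± 7.20 in Sham, next to macrophage-like cells in number. Their thinned mitotic share was 4.54% ± 1.15, 7.78% ± 1.42 and 2.37% ± 0.823 in that order (SD, n = 2 each). NK cell-like cells averaged 1.63% ± 1.32 in irradiated libraries labelled STING KO, 3.54% ± 1.14 in irradiated WT and 2.00% ± 1.02 in Sham, and T cell-like cells averaged 1.58% ± 1.02, 3.59% ± 2.71 and 1.87% ± 0.751 in that order (SD, n = 2 each). B cell-like cells averaged 0.247% ± 0.0698 in irradiated libraries labelled STING KO, 1.31% ± 0.838 in irradiated WT and 0.131% ± 0.186 in Sham. Monocyte-like cells had a pooled share of 0.341%. Neutrophil-like cells, which should lack these transcripts and so give the background, had a pooled share of 0.101% at a median of 2062 UMIs, against 5412 over all kept cells. The plasma cell-like cluster, led by Hbb-bs, Derl3 and Mzb1, held 43 cells that were mitotic without thinning out of 288, at a median of 1214 UMIs in those 43; of the 70 deep enough to be thinned, 10 were mitotic (14.3%). When cell cycle genes were kept in the clustering, a separate cluster of 1210 cells formed. By lineage those cells were 56.4% macrophage-like, 16.6% from mixed clusters, 8.84% from unnamed clusters, 7.52% dendritic cell-like, 5.37% plasma cell-like and 0.496% endothelial-like, with 1.74% or less from each other class.

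**Figure D2:**
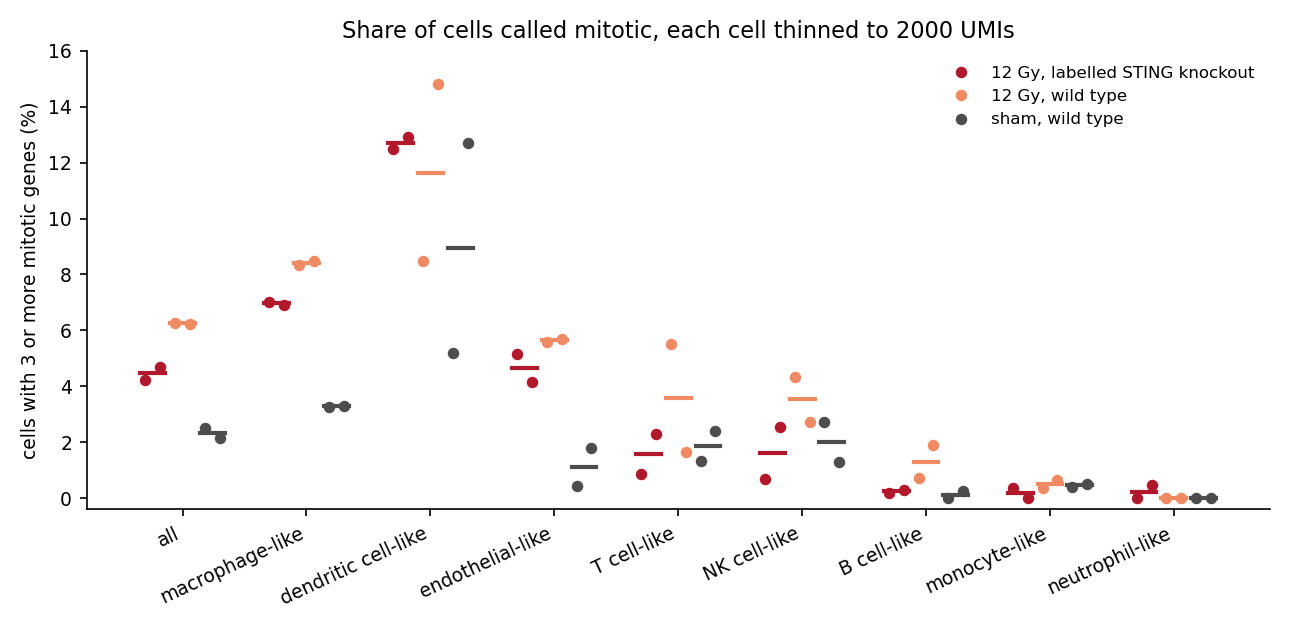
Percent of cells, each thinned to 2000 UMIs, with at least 3 mitotic member genes, over all kept cells and in 8 classes; each point is a library and each short bar a group mean. In macrophage-like cells the libraries stand at 7.03% and 6.92% (irradiated, labelled STING KO), 8.34% and 8.47% (irradiated WT) and 3.27% and 3.31% (Sham).

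In macrophage-like cells irradiation of wild-type hearts was accompanied by higher levels of nearly every member. UMI counts were summed per library, so that more dividing cells and more RNA per dividing cell cannot be told apart, and tested with edgeR across all 12429 genes that passed its low-count filter. The makeup of the class differed too. Cluster 12, led by Cd209f and Cd209g, made up 12.0% and 19.5% of it in irradiated WT and 27.5% and 27.0% in Sham. Cluster 27, led by Ifit3 and Ifit2, made up 13.5% and 9.13%, and 1.14% and 1.04%, in that order. The part of this makeup in the sums was not tested. Of the 39 members, 34 rose and 0 fell in irradiated WT against Sham at an adjusted p under 0.05, where 6.83% of all genes tested rose. For all 39 members both irradiated WT libraries lay above both Sham libraries, as did 27.6% of all genes. The median log2 fold change was 0.78 over replication members, of which 12 of 14 rose, 0.95 over mitotic regulators, of which 12 of 14 rose, and 0.93 over chromosome and spindle members, of which 10 of 11 rose. Cks2, Aurka, Mcm4, Pcna and Cenpa did not pass. In the same cell sums the 8 monocyte markers summed to 171 and 143 CPM in irradiated WT and 58.0 and 69.4 CPM in Sham, with no marker at 0, the 7 B cell markers, none at 0, to 61.5 and 85.2 CPM in irradiated WT and 39.5 and 40.7 CPM in Sham, and the 8 cardiomyocyte markers, none at 0, to 227 and 200 CPM in irradiated WT and 283 and 285 CPM in Sham; their part in the result was not tested.

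Among the replication genes the largest change was that of Pclaf. Levels are given as normalised CPM, which is CPM over all UMIs of a class in a library after TMM normalisation. Pclaf stood at 61.0 and 61.8 in irradiated WT and 18.5 and 20.6 in Sham, a log2 fold change of 1.65 ± 0.10 (SE, edgeR adjusted p = 6.57e-05). Tk1, which salvages thymidine, stood at 29.5 and 26.3 in irradiated WT and 9.92 and 12.4 in Sham (1.31 ± 0.15). Rrm2 stood at 23.6 and 23.6 in irradiated WT and 9.12 and 10.5 in Sham (1.26 ± 0.17). These 3 genes, the replication members most concentrated in mitotic cells, had log2 fold changes above 1. The helicase genes Mcm2, Mcm3, Mcm5, Mcm6 and Mcm7 rose by 0.50 to 0.90, whereas Mcm4 had 0.40 ± 0.13 (adjusted p = 0.0717). The broad transcript Pcna had 157 and 162 normalised CPM in irradiated WT and 143 and 127 in Sham, a log2 fold change of 0.24 ± 0.10 that did not pass (adjusted p = 0.141).

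Among the mitotic regulators, Birc5 of the chromosomal passenger complex stood at 74.6 and 79.9 normalised CPM in irradiated WT and 34.5 and 40.9 in Sham (log2 fold change 1.04 ± 0.10, adjusted p = 6.09e-04). Cyclin B2 (Ccnb2) stood at 44.9 and 42.2 in irradiated WT and 21.8 and 23.7 in Sham (0.94 ± 0.09). Cdc20, the activator of the anaphase-promoting complex, stood at 32.1 and 32.8 in irradiated WT and 12.7 and 16.3 in Sham (1.15 ± 0.12). For each the irradiated WT libraries agreed closely and lay well above Sham. Ube2c stood at 90.2 and 86.8 in irradiated WT and 34.5 and 51.0 in Sham (1.05 ± 0.15). Cks2 had 71.8 and 89.4 in irradiated WT and 55.5 and 63.5 in Sham, a difference of 0.44 ± 0.13 that did not pass (adjusted p = 0.0537).

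Among the chromosome and spindle genes, Stmn1 stood at 309 and 334 normalised CPM in irradiated WT and 160 and 177 in Sham (log2 fold change 0.93 ± 0.08, adjusted p = 3.61e-04). Topoisomerase II alpha (Top2a), which untangles sister chromatids, stood at 105 and 103 in irradiated WT and 46.6 and 57.1 in Sham (1.00 ± 0.10). The proliferation marker Mki67 stood at 123 and 98.8 in irradiated WT and 49.4 and 64.8 in Sham (0.95 ± 0.14). Neither gene overlapped between the groups. The spindle motor gene Kif11 had 23.4 and 24.3 in irradiated WT and 12.3 and 11.7 in Sham (0.99 ± 0.10). The spindle assembly factor Tpx2 stood at 33.5 and 37.9 in irradiated WT and 14.3 and 17.6 in Sham (1.16 ± 0.12). Hmgb2, broad across cell types, stood at 440 and 421 in irradiated WT and 299 and 305 in Sham (0.51 ± 0.07). Cenpa had 74.7 and 77.0 in irradiated WT and 63.9 and 68.3 in Sham and did not pass (0.20 ± 0.10, adjusted p = 0.211). Without cells of over 5% mitochondrial UMIs, 7 members rose in place of 34, and with cell cycle genes kept in the clustering 11 rose. In that clustering 683 macrophage-like cells fell in a cycling cluster, yet the macrophage-like class kept a similar size. It held 1274 and 1872 cells in irradiated WT and 1875 and 1960 in Sham, against 1287 and 1906, and 1844 and 1928, without cell cycle genes. The cause of the lower counts was not tested.

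**Figure D3:**
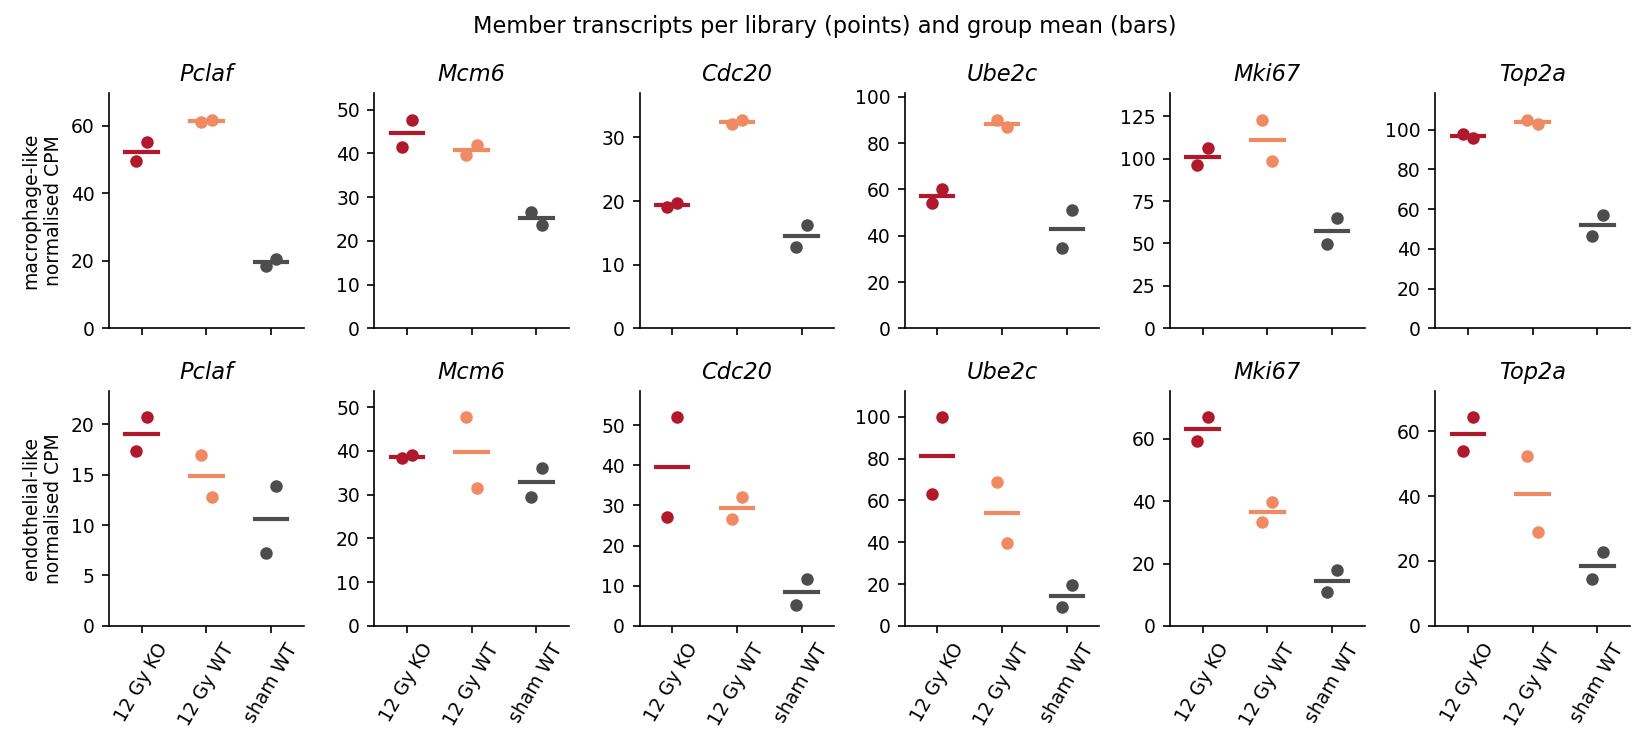
Normalised CPM, on axes that start at 0, of 6 members in macrophage-like (top) and endothelial-like cells (bottom); points are libraries, bars group means, and KO stands for libraries labelled STING KO. Pclaf in macrophage-like cells stands at 49.4 and 55.3 (irradiated, labelled STING KO), 61.0 and 61.8 (irradiated WT) and 18.5 and 20.6 (Sham), and Mki67 in endothelial-like cells falls in 3 separate pairs.

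Between the irradiated groups, a few mitotic members were lower in macrophage-like cells of the libraries labelled STING KO, and no replication member was called. Against irradiated WT, 4 of 39 members fell and 0 rose, where 2.33% of all genes tested fell. Of the 4, Cdc20 alone belonged to the set used to call mitotic cells, and 91.1% of its UMIs lay in such cells. Stmn1 had 78.3% of its UMIs there, and the broad transcripts Hmgb2 and Cks2 had 47.7% and 38.0%. Cdc20 stood at 19.1 and 19.7 normalised CPM in libraries labelled STING KO and 32.1 and 32.8 in irradiated WT (log2 fold change −0.74 ± 0.11, edgeR adjusted p = 0.0106). Hmgb2 stood at 333 and 343 in libraries labelled STING KO and 440 and 421 in irradiated WT (−0.35 ± 0.07, adjusted p = 0.0304). Stmn1 stood at 247 and 249 in libraries labelled STING KO and 309 and 334 in irradiated WT (−0.37 ± 0.08, adjusted p = 0.0389). For all 3 genes the libraries labelled STING KO lay between irradiated WT and Sham. Cks2 stood at 59.7 and 51.4 in libraries labelled STING KO and 71.8 and 89.4 in irradiated WT (−0.54 ± 0.13, adjusted p = 0.0486), and its libraries labelled STING KO overlapped Sham. Ube2c, at 54.3 and 60.2 in libraries labelled STING KO and 90.2 and 86.8 in irradiated WT, narrowly missed the threshold (−0.63 ± 0.15, adjusted p = 0.0502).

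By role, the median log2 fold change between the irradiated groups was 0.03 over replication members, with 7 of 14 positive and 0 called, −0.46 over mitotic regulators, with 1 of 14 positive, and −0.30 over chromosome and spindle members, with 0 of 11 positive. Both libraries labelled STING KO lay below both irradiated WT libraries for 27 of 39 members, as they did for 27.8% of all genes. No single replication gene passed, Pclaf (−0.23 ± 0.09, adjusted p = 0.193) and Mcm6 (0.13 ± 0.10, adjusted p = 0.504) included. The 4 calls depended on the libraries used. Without irradiated WT library 1 there were 2, without irradiated WT library 2, STING KO library 1 or STING KO library 2 there were 0, and without Sham library 1 or Sham library 2 there were 9. The monocyte markers, at 91.9 and 112 CPM in libraries labelled STING KO and 171 and 143 CPM in irradiated WT, moved with these genes. So did the 7 B cell markers, none at 0, at 36.9 and 44.7 CPM in libraries labelled STING KO and 61.5 and 85.2 CPM in irradiated WT. The makeup of the class differed too: cluster 2, led by Lyve1 and Folr2, made up 33.0% and 29.9% of macrophage-like cells in libraries labelled STING KO and 15.9% and 17.0% in irradiated WT, and cluster 27, led by Ifit3 and Ifit2, 2.59% and 5.98% in libraries labelled STING KO and 13.5% and 9.13% in irradiated WT. The part of these in the result was not tested.

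Against Sham, the macrophage-like cells of irradiated libraries labelled STING KO had 25 of 39 members higher and 0 lower, where 4.14% of all genes tested rose. This comparison shares the Sham libraries with that of irradiated WT. The members called were 13 of 14 replication genes, 5 of 14 mitotic regulators and 7 of 11 chromosome and spindle genes. Of them 24 were also called in irradiated WT; the 10 members called in irradiated WT alone were 7 mitotic regulators and 3 chromosome and spindle genes, and Mcm4 was called in libraries labelled STING KO alone. Without STING KO library 2, 12 members were called in place of 25, and without cells of over 5% mitochondrial UMIs, 3.

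Pclaf had 49.4 and 55.3 normalised CPM in irradiated libraries labelled STING KO and 18.5 and 20.6 in Sham (log2 fold change 1.42 ± 0.10, edgeR adjusted p = 1.09e-04). Mcm6 had 41.5 and 47.7 in libraries labelled STING KO and 26.6 and 23.6 in Sham (0.83 ± 0.11). Tk1 had 22.8 and 27.9 in libraries labelled STING KO and 9.92 and 12.4 in Sham (1.17 ± 0.14). These replication genes were higher in both libraries than in either Sham library. Mcm5 (0.87 ± 0.12) and the hemimethylated-DNA reader Uhrf1 (1.14 ± 0.14) did likewise, as did the spindle motor genes Kif11 (0.89 ± 0.10) and Cenpe (0.99 ± 0.14). Top2a had 97.8 and 95.5 in libraries labelled STING KO and 46.6 and 57.1 in Sham (0.90 ± 0.10). Cdc20 had 19.1 and 19.7 in libraries labelled STING KO and 12.7 and 16.3 in Sham, a difference of 0.41 ± 0.12 that did not pass (adjusted p = 0.0658), and Hmgb2 (0.16 ± 0.07, adjusted p = 0.195) and Cks2 (−0.10 ± 0.13, adjusted p = 0.672) did not pass either.

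**Figure D4:**
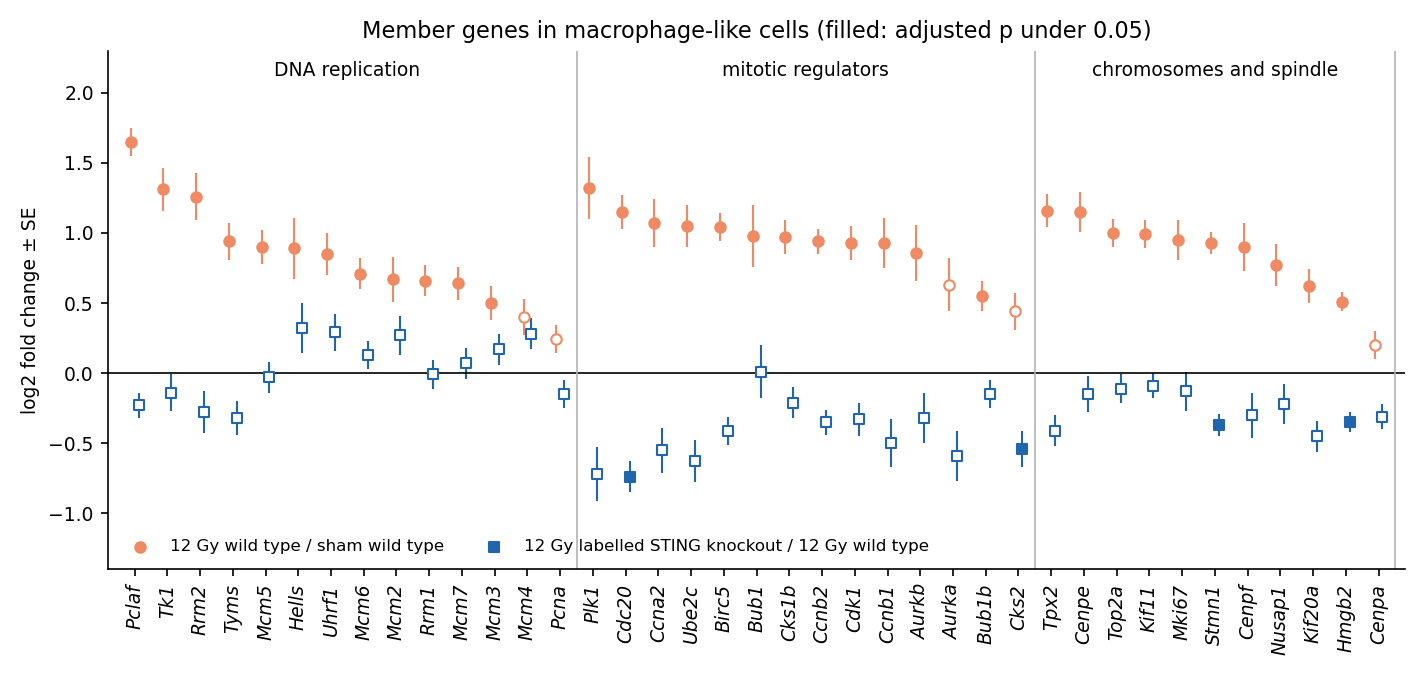
Log2 fold changes with SE of the 39 members in macrophage-like cells, by role, for irradiated WT against Sham (circles) and irradiated libraries labelled STING KO against irradiated WT (squares); filled symbols had an adjusted p under 0.05. Of the circles 34 are filled and all lie above 0, and of the squares 4 are filled, all below 0.

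Macrophage-like cells fell into 5 clusters. The tests by cluster were added after the data were seen, and differences in log2 fold change were tested among clusters 0, 2 and 4. The largest were cluster 0, led by Lilra5 and the fractalkine receptor Cx3cr1 (3085 cells), cluster 2, led by the resident macrophage markers Lyve1 and Folr2 (2723), cluster 4, led by the cytokines Tnf and Ccl4 (2304), and cluster 12, led by the lectins Cd209f and Cd209g (2008). Cluster 27, led by the interferon-induced Ifit3 and Ifit2, held 549. Cluster 12 made up 13.3% and 11.2% of macrophage-like cells in libraries labelled STING KO, 12.0% and 19.5% in irradiated WT, and 27.5% and 27.0% in Sham. Cluster 2 made up 33.0% and 29.9% in libraries labelled STING KO, 15.9% and 17.0% in irradiated WT and 25.6% and 29.0% in Sham, and cluster 27 made up 2.59% and 5.98%, 13.5% and 9.13%, and 1.14% and 1.04% in that order. The thinned mitotic share of cluster 0 was 8.52% ± 0.212 in irradiated libraries labelled STING KO, 12.7% ± 0.578 in irradiated WT and 3.92% ± 0.985 in Sham. That of cluster 4 was 9.13% ± 1.19, 8.67% ± 2.19 and 2.26% ± 0.579, that of cluster 2 was 5.28% ± 0.994, 5.91% ± 0.506 and 3.39% ± 1.66, and that of cluster 12 was 3.65% ± 2.47, 3.69% ± 0.657 and 3.23% ± 0.210, in the same order (SD, n = 2 each). The pooled share of cluster 27 was 6.98%.

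In irradiated WT against Sham, 31 of 39 members rose in cluster 0, where 5.23% of all genes tested rose, and 31 rose in cluster 4, where 2.68% did. In Sham of cluster 4, Plk1 (0 and 2.89 normalised CPM) and Bub1 (2.83 and 2.31) lay below the cutoff of the low-count filter, 3.42 CPM. They were tested there only through irradiated libraries, so any call of them against Sham in cluster 4 is a description. In cluster 2 none passed with edgeR, 16 had an unadjusted p under 0.05, and 0.841% of all genes rose. In cluster 12 Pclaf alone rose (1.07 ± 0.22), where 0.558% of all genes did; without Sham library 1, irradiated WT library 1 or irradiated WT library 2 no member of cluster 12 passed, and without Sham library 2 there were 2. In cluster 27, 0 of 37 members tested passed with edgeR and 5 had an unadjusted p under 0.05. Unadjusted counts for clusters, and for differences between classes or clusters, stand without the share of all genes at that level. Nothing is read from them. The median log2 fold change over members was 1.12 in cluster 0, 1.54 in cluster 4, 0.59 in cluster 2, 0.28 in cluster 12 and 0.39 in cluster 27. Without Sham library 2, 14 members rose in cluster 2. Mki67 in cluster 2 had 127 and 93.2 normalised CPM in irradiated WT and 34.5 and 87.6 in Sham, so the Sham libraries of this cluster stood apart from each other. In cluster 4 Mki67 had 107 and 104 in irradiated WT and 43.0 and 38.7 in Sham.

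The difference in log2 fold change between clusters was tested directly, with the library as a term. In irradiated WT against Sham the log2 fold change of 4 members was higher in cluster 4 than in cluster 2, where 0.148% of all genes tested were: Cdc20 by 1.84 ± 0.39, Ube2c by 1.51 ± 0.31, the kinetochore gene Cenpf by 1.75 ± 0.28 and Tpx2 by 1.81 ± 0.38. Without Sham library 2 there were 0, without irradiated WT library 2 there was 1, and without Sham library 1 there were 7. Between clusters 0 and 2, 0 members differed with edgeR in that comparison and 14 had an unadjusted p under 0.05. Against Sham, libraries labelled STING KO had 10 members with a higher log2 fold change in cluster 4 than in cluster 2, where 0.232% of all genes did, from Mcm7 (1.10 ± 0.24) to Tpx2 (2.20 ± 0.36). That count was 0 without Sham library 2, 1 without STING KO library 1 and 17 without Sham library 1.

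Between the irradiated groups, 13 of 39 members fell in cluster 0 of the libraries labelled STING KO, where 1.44% of all genes tested fell, and all 13 were mitotic members. Cdc20 in cluster 0 had 21.7 and 24.0 normalised CPM in libraries labelled STING KO and 53.0 and 57 in irradiated WT (log2 fold change −1.26 ± 0.15, adjusted p = 3.14e-04). Ube2c had 79.1 and 63.5 in libraries labelled STING KO and 132 and 147 in irradiated WT (−0.97 ± 0.13), and both libraries labelled STING KO lay far below the irradiated WT range. The kinase gene Plk1 (−1.33 ± 0.23) and Birc5 (−0.69 ± 0.10) fell too, with Ccna2, Ccnb1, Ccnb2, Cks2, Aurka, Aurkb, Cenpa, Kif20a and Hmgb2. The count was 5 without irradiated WT library 1, 8 without irradiated WT library 2, 5 without STING KO library 1 and 2 without STING KO library 2. In cluster 4 none passed with edgeR and 4 had an unadjusted p under 0.05: Cdc20 there had 18.0 and 24.9 in libraries labelled STING KO and 26.9 and 33.7 in irradiated WT (−0.52 ± 0.20, adjusted p = 0.238). The difference between clusters 0 and 4 in this comparison reached the threshold for 0 members with edgeR, with 20 at an unadjusted p under 0.05 and a median difference of −0.41.

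Against Sham, libraries labelled STING KO had 24 members higher in cluster 0, where 3.06% of all genes tested rose, and 34 higher in cluster 4, where 2.66% rose. In clusters 2 and 12 the count was 0 with edgeR, with 15 and 11 at an unadjusted p under 0.05. Leaving out STING KO library 2 gave 13 in cluster 0, and leaving out Sham library 2 gave 15. The log2 fold change was lower in cluster 0 than in cluster 4 for 7 members, where 0.151% of all genes were: Bub1b, Ube2c, Birc5, Cenpf, Tpx2, Top2a and Mki67, by 0.79 for Mki67 to 1.82 for Bub1b. That count was 0 without Sham library 1 or Sham library 2, 1 without STING KO library 1 or STING KO library 2, and 4 without irradiated WT library 1.

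**Figure D5:**
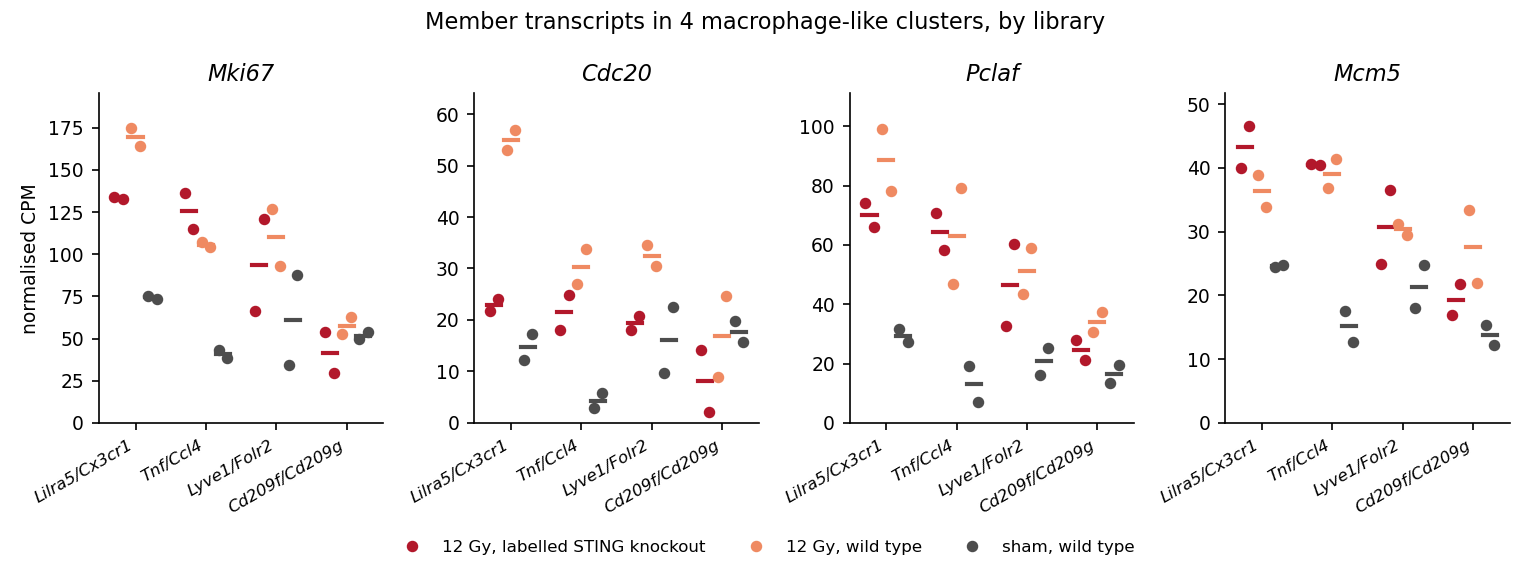
Normalised CPM, on axes that start at 0, of Mki67, Cdc20, Pclaf and Mcm5 in the 4 largest macrophage-like clusters, named on the axis by their leading genes; points are libraries and bars group means. Cdc20 in cluster 0 (Lilra5/Cx3cr1) stands at 21.7 and 24.0 (irradiated, labelled STING KO), 53.0 and 57 (irradiated WT) and 12.3 and 17.3 (Sham).

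Endothelial-like cells, which line vessels and should be rare in a CD45+ fraction, carried higher levels of most mitotic members in the libraries labelled STING KO than in Sham. Against Sham, 20 of 39 members rose and 0 fell in those libraries, where 3.35% of all genes tested rose: 9 of 14 mitotic regulators, 9 of 11 chromosome and spindle genes and 2 of 14 replication genes (Mcm3 and Uhrf1). Of the 20, Bub1 alone passed the low-count filter only through the libraries labelled STING KO. Both libraries lay above both Sham libraries for 37 of 39 members, as for 28.4% of all genes. In irradiated WT against the same Sham libraries 1 of 39 members rose, Mki67, a count near the 2.38% of all genes that did. In both libraries 27 of 39 members lay above Sham, as did 26.9% of all genes. The sums differed in size after TMM normalisation, at 6994347 and 3823309 UMIs in libraries labelled STING KO and 1948658 and 2659049 in irradiated WT. The counts of calls in these comparisons are therefore not set against each other. The median log2 fold change over the members was 1.41 in libraries labelled STING KO and 1.00 in irradiated WT. Between the irradiated groups 0 members passed with edgeR, where 0.0267% of all genes rose, and DESeq2 called 0. An unadjusted edgeR p under 0.05 was found for 8 members, against 1164 of all 11229 genes. Of the 39 log2 fold changes 35 were positive, with a median of 0.38.

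Mki67 in endothelial-like cells had 59.3 and 67.0 normalised CPM in irradiated libraries labelled STING KO, 33.4 and 39.9 in irradiated WT and 10.9 and 17.8 in Sham. The 3 groups did not overlap, and against Sham the log2 fold change was 2.11 ± 0.21 (edgeR adjusted p = 0.00344) in libraries labelled STING KO and 1.34 ± 0.24 (adjusted p = 0.0287) in irradiated WT. Ube2c had 63.1 and 99.9 in libraries labelled STING KO, 68.8 and 39.5 in irradiated WT and 8.79 and 19.6 in Sham. Its irradiated groups overlapped, and libraries labelled STING KO rose by 2.47 ± 0.40 over Sham. Cenpa had 46.9 and 60.9 in libraries labelled STING KO, 36.4 and 41.4 in irradiated WT and 21.2 and 23.1 in Sham (1.27 ± 0.18 for libraries labelled STING KO against Sham, adjusted p = 0.0115). Top2a had 54.0 and 64.3 in libraries labelled STING KO, 52.3 and 29.0 in irradiated WT and 14.5 and 22.6 in Sham (1.65 ± 0.30). Cenpe, a kinetochore motor, rose by 2.71 ± 0.47, Ccnb2 by 2.35 ± 0.40, Cenpf by 2.29 ± 0.40 and Tpx2 by 1.89 ± 0.35 in that comparison.

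Of the broad and replication transcripts fewer passed in endothelial-like cells. Stmn1 had 144 and 121 normalised CPM in libraries labelled STING KO, 134 and 101 in irradiated WT and 114 and 120 in Sham. Pcna had 121 and 133 in libraries labelled STING KO, 107 and 123 in irradiated WT and 126 and 112 in Sham. Both genes overlapped between irradiated WT and Sham, and neither passed any of the 3 comparisons within endothelial-like cells. Hmgb2 had 260 and 266 in libraries labelled STING KO, 243 and 214 in irradiated WT and 186 and 191 in Sham, and rose in libraries labelled STING KO against Sham (0.48 ± 0.10, adjusted p = 0.0356). Pclaf had 17.3 and 20.7 in libraries labelled STING KO, 16.9 and 12.8 in irradiated WT and 7.24 and 13.9 in Sham (0.80 ± 0.30 for libraries labelled STING KO against Sham, adjusted p = 0.152).

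The endothelial-like calls rested on few libraries. Without Sham library 1, Sham library 2 or STING KO library 2, 1 member was called in libraries labelled STING KO against Sham, and without STING KO library 1, 7. The call of Mki67 in irradiated WT was lost without Sham library 1 or Sham library 2, and 16 members were called without irradiated WT library 2 and 2 without STING KO library 1. Without cells of over 5% mitochondrial UMIs 3 members rose in libraries labelled STING KO against Sham, and with doublets kept 11 did. The endothelial-like sums also held other cells' transcripts: the 8 neutrophil markers, none at 0, summed to 452 and 410 CPM in libraries labelled STING KO, 629 and 565 in irradiated WT, and 911 and 6083 in Sham, while the endothelial markers summed to 21922 and 21475, 22215 and 20305, and 19406 and 20984 CPM in that order. The part of these transcripts in the result was not tested.

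Whether log2 fold changes differed between endothelial-like and macrophage-like cells was tested in 1 fit, added after the data were seen. For libraries labelled STING KO against Sham, the log2 fold change was higher in endothelial-like cells for 7 members, where 2.05% of all genes tested were higher: Ube2c by 2.07 ± 0.29, Ccnb2 by 1.75 ± 0.39, Cdc20 by 1.73 ± 0.37, Cenpf by 1.66 ± 0.35, Cenpa by 1.38 ± 0.21, Mki67 by 1.32 ± 0.22 and Cks2 by 1.02 ± 0.22. For irradiated WT against Sham, it was lower in endothelial-like cells for 1 member of 39, Stmn1 (by 0.96 ± 0.17 on the log2 scale), where 1.36% of all genes were lower. This single call lay near that share, so nothing is read from it. The count was 0 without Sham library 2 and 2 without Sham library 1 or irradiated WT library 2. For the irradiated groups against each other 0 members differed with edgeR, 24 had an unadjusted p under 0.05, and 36 of 39 differences were positive with a median of 0.72. The count of 7 was 3 without Sham library 1, 1 without Sham library 2, 3 without STING KO library 2 and 11 without STING KO library 1. Of the members that rose in libraries labelled STING KO against Sham, 13 rose in both classes.

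In B cell-like cells, 2 members, Stmn1 and Top2a, fell in libraries labelled STING KO against irradiated WT. Of the 39 members 24 passed the low-count filter and 7 were called lower, where 0.461% of all genes tested were, but 5 of the 7 passed that filter only through the irradiated WT libraries, where they were high, so the count is a description and nothing is read from it. Stmn1 had 37.2 and 38.1 normalised CPM in libraries labelled STING KO, 76.5 and 126 in irradiated WT and 58.9 and 63.8 in Sham. The libraries labelled STING KO lay below every other library, and the log2 fold change against irradiated WT was −1.48 ± 0.21 (edgeR adjusted p = 0.00501). Top2a had 12.4 and 17.2 in libraries labelled STING KO, 26.6 and 49.2 in irradiated WT and 12.8 and 14.8 in Sham (−1.43 ± 0.28 against irradiated WT). Its irradiated WT libraries were the high ones, and the libraries labelled STING KO overlapped Sham. The 5 others were near 0 outside irradiated WT. Mki67 had 2.38 and 5.84 in libraries labelled STING KO, 14.6 and 26.3 in irradiated WT and 1.96 and 4.14 in Sham, and Pclaf had 1.43 and 6.46, 17.2 and 37.9, and 0 and 2.95 in that order. Cdk1 had 0.477 and 1.84 in libraries labelled STING KO, 6.87 and 13.2 in irradiated WT and 0.981 and 1.77 in Sham. Nusap1 and Rrm2 reached 1.54 and 2.46 at most in libraries labelled STING KO, and 13.6 and 16.6 at most in irradiated WT. Irradiated WT library 2 held 33 of the 54 mitotic B cell-like cells. The count of 7 was 1 without irradiated WT library 2, Sham library 1, Sham library 2 or STING KO library 2, 0 without STING KO library 1 and 22 without irradiated WT library 1, and DESeq2 called 2. The 5 plasma cell markers in these sums, none at 0, stood at 321 and 1077 CPM in libraries labelled STING KO, 321 and 1412 in irradiated WT and 272 and 497 in Sham. The 5 erythroid markers, none at 0, stood at 7.56 and 9.45 CPM in libraries labelled STING KO, 1857 and 630 in irradiated WT and 202 and 579 in Sham. The part of these markers was not tested.

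In NK cell-like cells, Birc5 had 78.0 and 56.3 normalised CPM in irradiated WT and 17.6 and 9.59 in Sham (log2 fold change 2.36 ± 0.48, edgeR). Nusap1 had 73.8 and 39.2 in irradiated WT and 4.40 and 6.39 in Sham, and Ube2c had 114 and 95.5 in irradiated WT and 11.0 and 11.2 in Sham. These 3 were the members called of 30 tested, where 0.362% of all genes rose. Nusap1 and Ube2c passed the low-count filter only through irradiated WT, where they were high, so nothing is read from that count. Birc5 also lay below the cutoff of that filter, 19.4 CPM, in both Sham libraries. It was tested only through irradiated libraries, so its fold change is a description. For all 3 the irradiated WT libraries lay above Sham without overlap, as for 20.4% of all genes tested, and nothing is read from this either. DESeq2 called 0 members, and the count was 0 without Sham library 1 or Sham library 2, 1 without irradiated WT library 1, 7 without irradiated WT library 2, 10 without STING KO library 1 and 9 without STING KO library 2. In these sums the 5 erythroid markers, none at 0, stood at 5.96 and 4252 CPM in irradiated WT and 217 and 68.4 CPM in Sham, and the 5 plasma cell markers, with Tnfrsf17 at 0, at 11.9 and 1433 CPM in irradiated WT and 2.11 and 9.12 CPM in Sham. The 7 B cell markers, none at 0, stood at 512 and 959 CPM in irradiated WT and 190 and 268 CPM in Sham, without overlap. Their part in the result was not tested.

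In any comparison edgeR called no member in neutrophil-like, monocyte-like, dendritic cell-like, plasma cell-like, T cell-like or fibroblast-like cells. In T cell-like cells 30 members were tested. Their median log2 fold change was 1.01 in irradiated WT against Sham and −0.75 in libraries labelled STING KO against irradiated WT. An unadjusted edgeR p under 0.05 was found for 15 and 10 members, against 506 and 619 of all 6772 genes. In each comparison 11 of the 30 passed the low-count filter only through the group where they were higher, so nothing is read from these values. In dendritic cell-like cells, where all 39 were tested, the medians of those comparisons were 0.20 and 0.03. There 1 and 3 members had an unadjusted p under 0.05, against 537 and 845 of all 8915 genes. In monocyte-like cells 19 members were tested, with medians of 0.21 and −0.40. There 2 and 7 had an unadjusted p under 0.05, against 576 and 926 of all 8623 genes. In each comparison 5 of the 19 passed the low-count filter only through the group where they were higher, so nothing is read from these values either. Only 13 members were tested in fibroblast-like, 7 in plasma cell-like and 6 in neutrophil-like cells.

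Summed over all kept cells, no member reached the threshold with edgeR in irradiated WT against Sham, where 0.0127% of all genes tested did, although 37 of 39 had an unadjusted p under 0.05, against 22.8% of all genes. DESeq2 called 34 of them higher, where 4.58% of all genes were. The log2 fold changes ran between 0.10 for Cks2 and 1.60 for Pclaf, with a median of 0.96. For libraries labelled STING KO against irradiated WT the median was −0.23, 0 members passed with edgeR and DESeq2 called 1. An unadjusted edgeR p under 0.05 was found for 11 members, against 2322 of all 15748 genes tested.

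Related genes outside the 39 were examined as 3 lists. In macrophage-like cells of irradiated WT against Sham, 21 of 41 other replication genes, 47 of 54 other mitotic genes and 5 of 14 cell cycle transcription factors rose and none fell, where 6.83% of all genes tested rose, with medians of 0.69, 0.93 and 0.44. The kinetochore genes Spc24 (1.40 ± 0.12) and Knl1 (1.14 ± 0.11), the cytokinesis gene Racgap1 (0.93 ± 0.10) and Cdca3 (0.93 ± 0.11) had the lowest adjusted p. In libraries labelled STING KO against irradiated WT, 4 of 54 other mitotic genes fell, where 2.33% of all genes did: Ube2s, a partner of UBE2C at the anaphase-promoting complex (−0.51 ± 0.09), Spc24 (−0.51 ± 0.11), Racgap1 (−0.43 ± 0.10) and Knstrn (−0.41 ± 0.10). Of the other replication genes and transcription factors 0 passed there with edgeR. In libraries labelled STING KO against Sham, 20 of 41, 30 of 54 and 6 of 14 rose, where 4.14% of all genes did, led by Knl1 (1.03 ± 0.11), the E2F partner Tfdp1 (0.75 ± 0.09), Cdca3 (0.78 ± 0.10) and the spindle motor gene Kif15 (1.16 ± 0.16).

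In endothelial-like cells of irradiated WT against Sham, 4 of 53 other mitotic genes tested rose, where 2.38% of all genes did: Gtse1, which acts on p53 and microtubules in G2, by 4.36 ± 0.39, Aspm at the spindle poles by 3.34 ± 0.48, Psrc1 by 3.64 ± 0.61 and Ckap2 by 2.14 ± 0.31. A further mitotic gene, Hjurp, the chaperone of CENPA, fell by 0.62, where 1.45% of all genes fell. Of 35 other replication genes tested 1 rose, Brip1, a DNA repair helicase gene (1.75 ± 0.33). Hjurp and Brip1 were single calls near the share of all genes, so nothing is read from those 2 counts. Gtse1 averaged 20.1 ± 0.837 normalised CPM in irradiated WT and 0.911 ± 0.557 in Sham (SD, n = 2 each). Aspm and Psrc1 averaged 1.17 and 0.476 in Sham. All 3 genes lay below the cutoff of the low-count filter, 3.91 CPM, in Sham. They were tested only through irradiated libraries, so the sizes of their fold changes are a description. In libraries labelled STING KO against Sham, 21 of 53 other mitotic genes and 3 of 35 other replication genes rose, where 3.35% of all genes did. They were led by Gtse1 (4.35 ± 0.38), Ckap2 (2.79 ± 0.28), Aspm (3.43 ± 0.45) and Brip1 (2.22 ± 0.30). Further genes counted here averaged below the cutoff of 3.91 CPM in Sham, such as Nek2 (0.435) and Pole (0.952), so these counts are a description too. In B cell-like cells Cdca3 averaged 1.09 ± 0.195 normalised CPM in libraries labelled STING KO and 9.24 ± 4.56 in irradiated WT, and Cdca8 averaged 1.88 ± 0.0448 and 10.6 ± 1.64 (SD, n = 2 each); both were called lower but passed the low-count filter only through irradiated WT. In monocyte-like cells Rbl2, which encodes the pocket protein p130 of quiescent cells, rose in libraries labelled STING KO against irradiated WT (1.33 ± 0.25), where 0.116% of all genes rose.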

How the data were processed

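Expression of the 39 member genes was measured by droplet single-cell RNA sequencing (10x Chromium 3′ v3) in 6 libraries. The authors deposited a matrix of UMI counts per gene and barcode for each library, raw and unnormalised by their values. Per the submitters' processing notes, the build was mm10 and the tools were Cell Ranger 5.0.0 and Seurat 3, with the role of Seurat not given.

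Barcodes with under 200 genes or over 10% mitochondrial UMIs (23.2% to 33.4% per library) were removed. The automatic threshold of the doublet caller Scrublet marked 0 to 3 barcodes per library, so the highest scores were removed at 0.8% per 1000 cells (98 to 321). Cells were clustered with scanpy 1.11.5 and leidenalg 0.10.2 (2000 variable genes, 30 components, resolution 1) without cell cycle genes or genes correlated with them above 0.15, and named from at least 3 markers; the rule that sets mixed clusters aside was chosen after the clusters, but before member values, were seen. Counts were summed per library and class and tested with edgeR 4.0.16 (R 4.3.3; low-count filter, TMM, quasi-likelihood F test, Benjamini-Hochberg over all genes tested) in 1 fit of all 6 libraries, with 3 residual degrees of freedom; errors of fold changes are SE. The test was first checked on data simulated from the macrophage-like means, with a common dispersion for all genes. That check does not cover the spread between the libraries measured here, or the smaller classes. DESeq2 1.42.0, other filters, scalings, cell sets and each library left out served as alternatives. Fits by cluster, tests of differences between classes, and the leave-one-out and DESeq2 runs for B cell-like and NK cell-like cells, and a check of which called genes passed the low-count filter only through the group where they were high, were added after the data were seen. Shares of cells used cells thinned to 2000 UMIs; intervals and shares of single libraries cover counting error only. The members and the other gene lists were chosen with earlier results of these data known. Named with values were Mki67, Top2a, the 2 members of highest mean level in each role, called members (the 8 of lowest adjusted p), and the 4 lowest from other lists; further members shown for contrast were chosen after their values were seen. Promoter windows came from RefSeq, GRCm38.p6.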

Additional observations from a re-analysis of the deposited data

Results flagged for a closer look

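The log2 fold change against Sham differed between classes or clusters for the following members, each by a test of the difference itself in edgeR. Where libraries labelled STING KO are set against Sham, genotype label and irradiation differ together and their effects cannot be told apart. For irradiated libraries labelled STING KO against Sham, the log2 fold change of 7 members was larger in endothelial-like than in macrophage-like cells, where 2.05% of all genes tested were higher. They were Ube2c by 2.07, Ccnb2 by 1.75, Cdc20 by 1.73, Cenpf by 1.66, Cenpa by 1.38, Mki67 by 1.32 and Cks2 by 1.02. For irradiated WT against Sham, 1 member of 39 differed between these classes, Stmn1, with a difference of −0.96, endothelial-like minus macrophage-like. As 1.36% of all genes tested were lower, this single call lay near that share and nothing is read from it.

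Among macrophage-like cells, 4 members had a larger log2 fold change in cluster 4, led by Tnf and Ccl4, than in cluster 2, led by Lyve1 and Folr2, for irradiated WT against Sham: Cdc20 by 1.84, Tpx2 by 1.81, Cenpf by 1.75 and Ube2c by 1.51. Of all genes tested 0.148% had a larger one. For irradiated libraries labelled STING KO against Sham, 10 members had a larger log2 fold change in cluster 4 than in cluster 2, as did 0.232% of all genes. In that comparison 7 members had a smaller one in cluster 0, led by Lilra5 and Cx3cr1, than in cluster 4, as did 0.151% of all genes. Each of these 5 counts fell to 0 or 1 without at least 1 of the Sham libraries, and these tests were added after the data were seen.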

How the results depend on the processing

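With 2 libraries a group, counts of called members moved with single libraries and filters. Counts that changed by over 1.5 times are given here. Over all kept cells, DESeq2 called 34 members in irradiated WT against Sham, 1 in libraries labelled STING KO against irradiated WT and 28 in libraries labelled STING KO against Sham, and testing without a low-count filter gave 34, 0 and 30, in place of 0 each. In macrophage-like cells, limiting mitochondrial UMIs to 5% gave 7 in place of 34, 1 in place of 4 and 3 in place of 25 in that order, and keeping cell cycle genes in the clustering gave 11 in place of 34 and 1 in place of 4 for the first and second; it also turned 3 genes, with log2 fold changes of −0.10 for Hmgb2 and −0.62 for Ccnb1 (irradiated WT against Sham) and 0.17 for Cdc20 (libraries labelled STING KO against irradiated WT). The 4 calls between the irradiated groups became 12 without a low-count filter, 9 with only the 4 libraries compared, 2 with doublets kept and 9 at resolution 0.5. In endothelial-like cells the 1 call in irradiated WT against Sham became 7 with DESeq2, 24 without a low-count filter, and 0 with only the 4 libraries compared or with doublets kept; the 0 between the irradiated groups became 6 without a low-count filter, and the 20 in libraries labelled STING KO against Sham became 32 without a low-count filter, 3 at 5% mitochondrial UMIs and 11 with doublets kept. DESeq2 gave 2 for the 7 calls of B cell-like and 0 for the 3 of NK cell-like cells. The cause of these changes was not tested.

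Leaving out 1 library at a time gave, in macrophage-like cells, 25 to 34 calls for irradiated WT against Sham, 0 to 9 between the irradiated groups and 12 to 27 for libraries labelled STING KO against Sham; in endothelial-like cells 0 to 16, 0 and 1 to 28; in B cell-like cells 0 to 22 and in NK cell-like cells 0 to 10. In cluster 0 it gave 25 to 29, 2 to 16 and 13 to 24, in cluster 4 it gave 21 to 31, 0 and 28 to 35, and for irradiated WT against Sham 0 to 14 in cluster 2 and 0 to 2 in cluster 12. Differences between endothelial-like and macrophage-like cells gave 0 to 2, 0 to 4 and 1 to 11, those between clusters 4 and 2 gave 0 to 7 for irradiated WT and 0 to 17 for libraries labelled STING KO against Sham, and those between clusters 0 and 4 gave 0 to 5 for the last.

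The replicate numbers did not pair the libraries: deviations from the group means correlated at −0.01 between Sham and irradiated WT, 0.18 between Sham and libraries labelled STING KO, and 0.02 between the irradiated groups. With the replicate number as a block, 34, 4 and 24 members were called in macrophage-like cells and 3, 0 and 15 in endothelial-like cells.

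The mitotic share differed by 3.92 percentage points between irradiated WT and Sham and −1.77 between libraries labelled STING KO and irradiated WT over all cells, 5.12 and −1.44 in macrophage-like and 4.53 and −0.997 in endothelial-like cells. At 2 or more genes the values that moved were 4.40 over all cells, 5.33 and −1.15 in macrophage-like cells and −0.276 between irradiated groups in endothelial-like cells; at 5 or more genes they were 2.76 and −1.33, 4.09 and −1.12, and 1.89 and 0.670; without thinning 5.81 and −1.24, 7.21 and −0.384, and 3.62 and 2.27; thinned to 1000 UMIs 2.60 and −0.930, 4.11 and −1.06, and 2.02 and 1.07; with doublets kept 3.71 and −1.48, 4.79 and −1.04, and 2.93 and 0.0167; and at 5% mitochondrial UMIs 3.35, 5.0 and −1.13, and 1.49 and 1.41. The endothelial-like difference between the irradiated groups thus changed sign in 5 of 6 settings and has no stable direction.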
